A study of Rattus norvegicus with 12 samples.

Results

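The genes described here are 10 transcription factors and immediate early genes: the Fos-type factors Fos, Fosb, Fosl1 and Fosl2, the Jun-type factors Jun, Junb and Jund, the related factor Atf3, and the early-response genes Egr1 and Ier2. They were taken by symbol from the deposited gene table. Each of the 10 symbols matched a row among the 21071 genes of the table, and each passed the filter on low counts that left 15650 genes for testing. Their levels were followed in rat nucleus pulposus cells, the gel-forming cells of the centre of the intervertebral disc, in 12 libraries of total RNA.

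The libraries form 4 groups of 3, and every group received exosomes, so there was no exosome-free control. Of the 2 groups without erastin, one received NPPC-Exo, which the series title gives as exosomes of nucleus pulposus progenitor cells, and the other received exosomes labelled miR_Exo. The other 2 groups received the same exosomes together with erastin, an inhibitor of cystine uptake that is used to induce ferroptosis. The labels give 50 µg/mL for exosomes, in a protocol that names NPPC-Exo and does not mention miR-Exo, and for erastin a range of 0.1 to 5 µM over 48 h with no dose for each library. They name no miRNA for miR-Exo and no strain, sex or age of the rats, and they do not say whether libraries came from separate cultures or animals. The p-values therefore measure the spread between these libraries, which may be technical.

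Fos and Jun proteins join in pairs through leucine zippers to form AP-1, a factor that binds short DNA sites in the promoters and enhancers of genes for growth, matrix breakdown and inflammation. Most of these genes are switched on within minutes of a stimulus by MAP kinases acting on factors already bound to their promoters, among them serum response factor at CArG boxes and CREB at CRE sites, and their messages are short-lived. Fosl1 and Fosl2 belong to the later, longer-lived part of the response. In disc and cartilage cells AP-1 is known for driving matrix metalloproteinase genes after inflammatory or mechanical stimuli.

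The Mir221 row of the table told the kinds of exosome apart. Its level ran from 26.4 to 29.1 CPM (counts scaled to library size and composition) with miR-Exo and from 23.9 to 24.4 CPM with erastin and miR-Exo. In the groups with NPPC-Exo it ran from 0.303 to 0.32 CPM, and from 0.318 to 0.411 CPM with erastin. The mature strand best known from this hairpin is shown for that reason, with its seed (bases 2 to 8) in capitals, from the RefSeq table of build GRCr8.
rno-miR-221-3p: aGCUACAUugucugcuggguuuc
These libraries count the gene row and do not tell mature strands apart.

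Promoters in the RefSeq table matched 7 of the 10 genes. The 4 printed here are those of Jund, Ier2, Junb and Fosl1, all of which hold the TGACG described below. Those of Fosb, Fosl2 and Egr1 are described and not printed. Each is the 250 bases before the annotated start, on build GRCr8, read 5′ to 3′ in the direction of the gene. Capitals mark every TGACG on either strand, the core of a CRE, and where the full CRE site TGACGTCA is present it stands wholly in capitals.
Jund, chr16:18769772-18770021, minus strand: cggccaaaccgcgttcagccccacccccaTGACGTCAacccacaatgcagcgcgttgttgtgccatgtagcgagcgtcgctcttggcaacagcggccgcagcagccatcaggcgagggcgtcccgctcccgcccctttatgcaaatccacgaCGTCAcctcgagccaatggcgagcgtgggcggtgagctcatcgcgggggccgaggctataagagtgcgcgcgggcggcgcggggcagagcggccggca
Ier2, chr19:40399123-40399372, plus strand: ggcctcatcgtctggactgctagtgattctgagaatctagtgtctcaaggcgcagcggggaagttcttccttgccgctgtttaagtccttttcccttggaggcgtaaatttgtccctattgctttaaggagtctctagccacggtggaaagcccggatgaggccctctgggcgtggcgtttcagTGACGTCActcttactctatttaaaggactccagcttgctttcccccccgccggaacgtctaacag
Junb, chr19:40080876-40081125, plus strand: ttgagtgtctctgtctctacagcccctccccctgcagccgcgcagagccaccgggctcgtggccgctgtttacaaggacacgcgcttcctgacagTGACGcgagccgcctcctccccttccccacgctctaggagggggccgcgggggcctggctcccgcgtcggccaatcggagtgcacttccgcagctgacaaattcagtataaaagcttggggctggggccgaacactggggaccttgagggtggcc
Fosl1, chr1:212183635-212183884, plus strand: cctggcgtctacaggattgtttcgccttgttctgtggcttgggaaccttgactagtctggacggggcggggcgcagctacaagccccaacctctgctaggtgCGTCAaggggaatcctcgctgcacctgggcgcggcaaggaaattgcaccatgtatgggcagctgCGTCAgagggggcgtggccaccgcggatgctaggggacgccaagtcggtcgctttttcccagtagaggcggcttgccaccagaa
The Jund window held a full CRE that begins 221 bases before the start, and the Ier2 window one that begins 66 bases before it. Over 33469 promoters of the same length, 1.59% held the full site TGACGTCA and 18.2% held TGACG on either strand, the full sites included. Junb had a single core 155 bases before its start, and Fosl1 had cores 148 and 84 bases before its own. The CArG box was found in the Egr1 window alone of the 7, at 105 and 83 bases before the start, and 1.5% of all promoters held it. Egr1 also had TGACG cores 135 and 66 bases before its start. The AP-1 site TGANTCA, present in 6.34% of all promoters, was in none of the 7 windows. Fosb and Fosl2 held none of these motifs. A match describes letters only, and no binding was measured.

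Library totals ran from 54616827 to 68865720 counts. Nucleus pulposus and cartilage markers were present, and 10 of 15 listed symbols matched the table. Their summed level ran from 7050 to 8070 CPM with NPPC-Exo and from 7020 to 8500 CPM with miR-Exo. With erastin it ran from 1110 to 1250 CPM under NPPC-Exo and from 846 to 908 CPM under miR-Exo, and most of it was Acan, the aggrecan core protein. The markers did not all move with the sum. Of 9 tested, 5 were called lower and 2 higher with erastin under NPPC-Exo, and 6 lower and 2 higher under miR-Exo. Mean Cd24 went up from 8.82 to 15.9 CPM under NPPC-Exo and from 12.7 to 21.3 CPM under miR-Exo. Krt18, a keratin of nucleus pulposus cells, was at or near 0 in every group, with a highest mean of 0.12 CPM. Of 11 macrophage and leukocyte markers 7 matched, none at 0 throughout, and their sum lay between 7.53 and 9.64 CPM with NPPC-Exo and between 22.4 and 29.9 CPM with erastin and miR-Exo, while Csf1r had a mean of 0.403 CPM or less. The 5 matched endothelial markers of 8 summed to between 8.17 and 28.9 CPM, and the 4 neuron and glia markers of 6 to between 4.69 and 28.1 CPM. Both sums were lowest with erastin and miR-Exo. Single genes made up most of these sums: Cd14 for macrophages and leukocytes, Flt1 for endothelium and Gfap for neurons and glia. Other markers did not all follow them. Of 3 endothelial markers tested, erastin gave 1 higher and 1 lower under either kind of exosome. Of 3 neuron and glia markers tested, it gave 1 higher and 1 lower under NPPC-Exo, and 0 higher and 1 lower under miR-Exo. The part of these shifts in the results on the 10 genes was not tested. In such bulk samples fewer cells of a type and less RNA per cell cannot be told apart.

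The libraries NPPC-Exo 1 and miR-Exo 1 stood apart for 4 of the genes. Jun, Junb, Jund and Ier2 were each highest, within their group, in these libraries, which is why results on them are given with and without both. Their log2 CPM lay above the group mean by 0.35 and 0.61 for Jun in NPPC-Exo 1 and miR-Exo 1, by 1.04 and 1.74 for Junb, by 1.09 and 1.42 for Jund, and by 0.91 and 0.67 for Ier2. Of 10019 genes with a mean log2 CPM above that of 5 CPM, 152 (1.52%) lay more than 0.3 above the group mean in both libraries, 52 (0.519%) more than 0.5 and 7 (0.0699%) more than 1. Jund, at a lower mean, is not among those genes, and of the 10 all 4 lay past 0.3, 3 (without Jun) past 0.5, and 2 (Junb and Jund) past 1. The 4 genes have no introns or nearly none in the deposited table, since the length implied by its counts and normalised values was 102% to 105% of the gene's span, against 86.1% for Egr1, 57.9% for Fos, 54.4% for Fosb, 20.5% for Fosl1, 9.55% for Atf3 and 4.41% for Fosl2. The part of gene structure in these high values was not tested. Leaving out the highest library of a group lowers the group's mean by construction and can narrow its spread. For Jun, Junb, Jund and Ier2, values and adjusted p without these libraries therefore describe the remaining libraries and are not independent support.

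**Figure D1:**
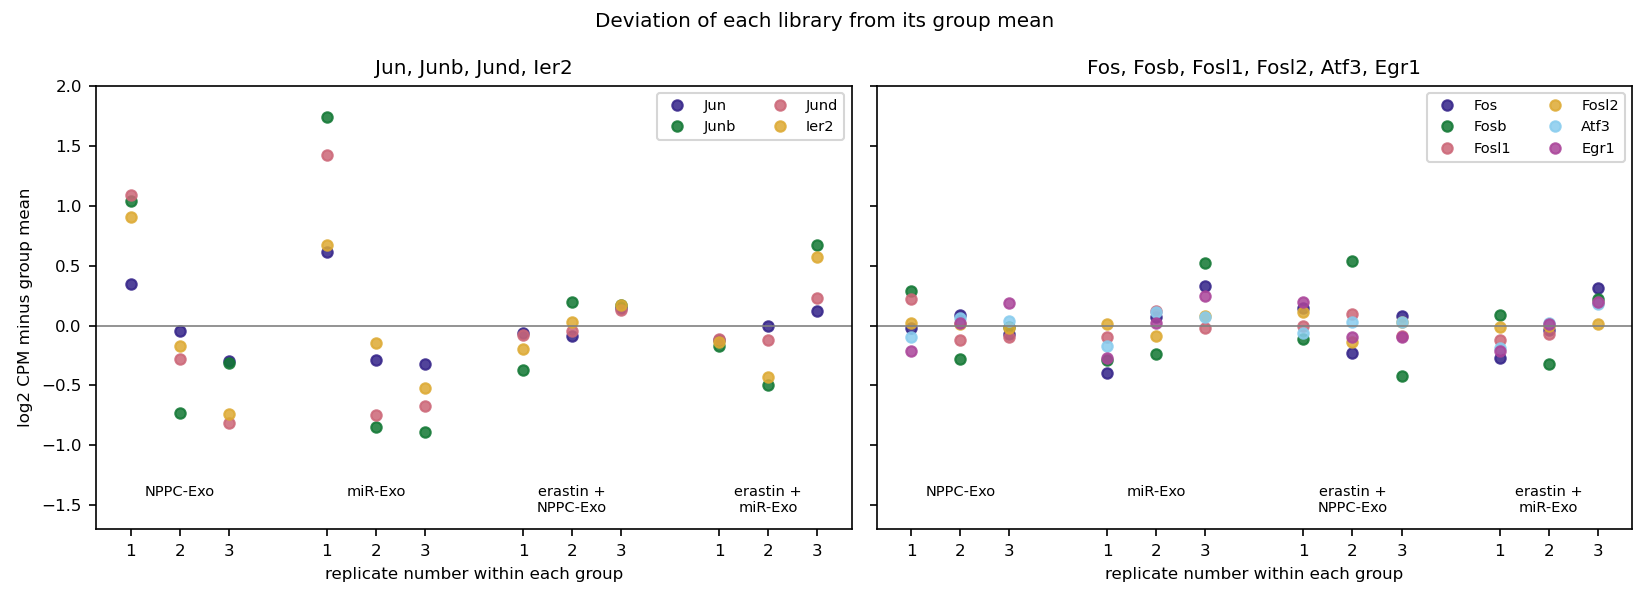
Deviation of log2 CPM from the group mean in each library. The left panel holds Jun, Junb, Jund and Ier2, and the right panel Fos, Fosb, Fosl1, Fosl2, Atf3 and Egr1. Each point is a gene in a library, and colours stand for genes. The 4 groups lie side by side along the x axis, which gives the replicate number within each group. Junb reaches 1.74 above its group mean in miR-Exo 1 and 1.04 above it in NPPC-Exo 1, and with erastin no library of Junb lies more than 0.67 above.

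Per length, Egr1 was the most abundant of the 10 genes in every group and Fosb the least. The deposited FPKM, fragments per kilobase of gene scaled by library size, averaged 70 ± 9.74 for Egr1 with NPPC-Exo (SD, n = 3). Below it in that group stood Fosl2 at 19.2 ± 0.226, Fos at 13.6 ± 0.823, Ier2 at 8.5 ± 5.07, Fosl1 at 7.97 ± 1.07, Jun at 6.45 ± 1.49, Junb at 3.97 ± 2.72, Atf3 at 2.67 ± 0.157, Jund at 1.61 ± 1.16 and Fosb at 1.25 ± 0.246 FPKM. From Fos downwards each gene's libraries overlapped with those of its neighbour in this order, while Egr1 and Fosl2 stood clear of the next. The rank of Fosl2 rests on the length that the deposited values imply for it, 797 bases, the shortest of the 10. With erastin and NPPC-Exo, Fosl1 stood at rank 2 with 18.2 ± 1.38 FPKM and Fos at rank 6 with 6.45 ± 0.801. With miR-Exo alone, Fos stood at rank 2 with 37.7 ± 9.54 FPKM.

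**Figure D2:**
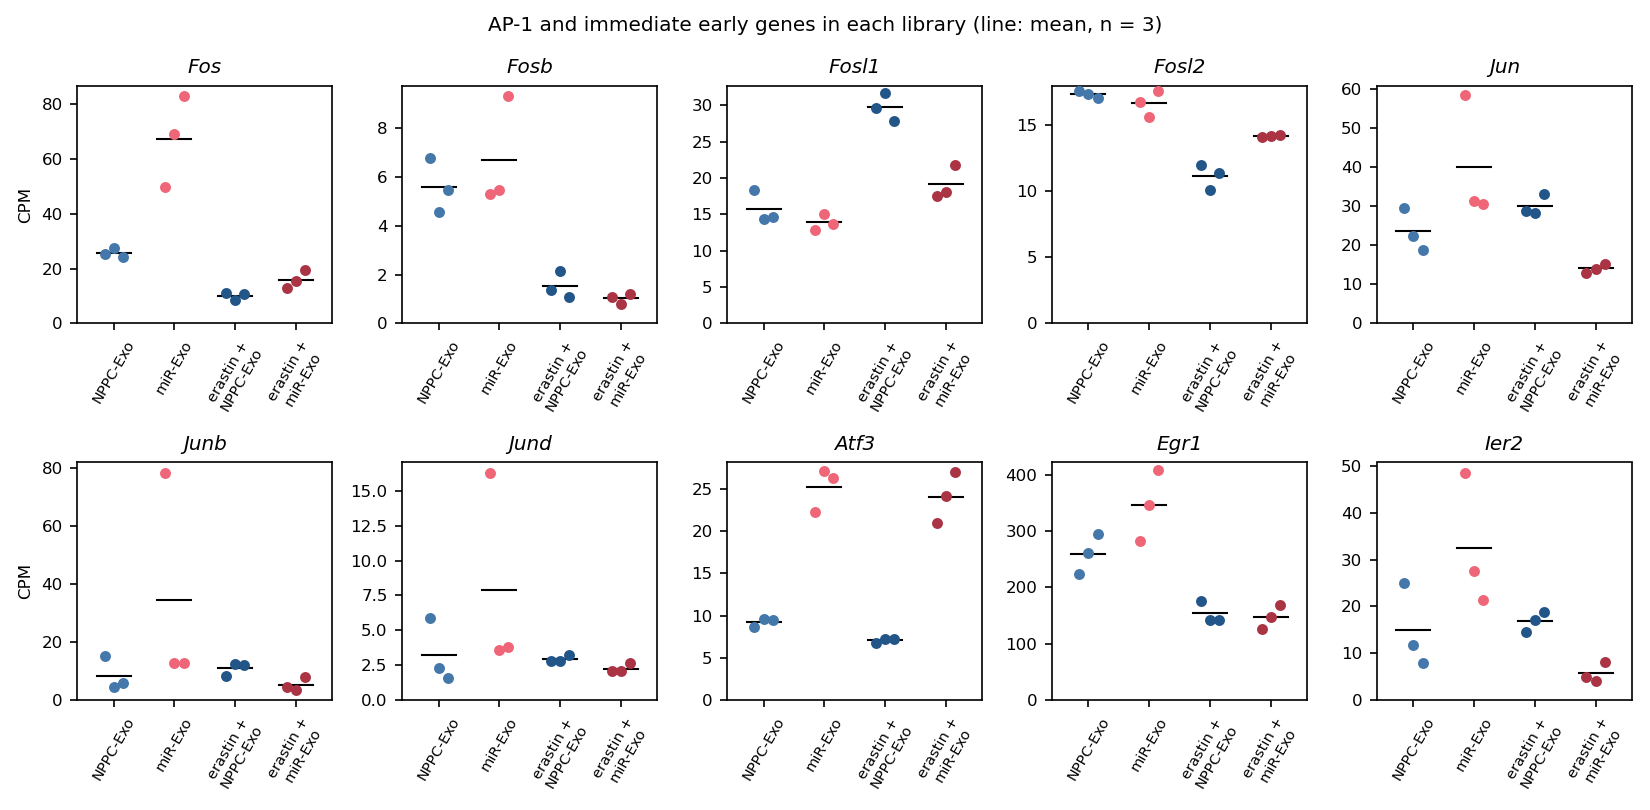
Level of each of the 10 genes in CPM, scaled by library size and composition, in every library; each point is a library, the horizontal line is the group mean (n = 3), and each panel has its own linear axis from 0. Fos, Fosb and Egr1 are low in both erastin groups, Fosl1 is high in them, Atf3 is high in both miR-Exo groups, and a single miR-Exo library lifts the means of Junb and Jund.

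Erastin lowered 5 of the 10 genes in cells that received NPPC-Exo and 8 in cells that received miR-Exo. Here a gene is said to fall or rise where its p in edgeR's quasi-likelihood test, with Benjamini-Hochberg adjustment over the 15650 genes, was under 0.05. Under NPPC-Exo those that fell were Fos, Fosb, Fosl2, Atf3 and Egr1, Fosl1 rose, and the median log2 change of the 10 was -0.26. That median turned to 0.02 when counts were scaled by library size alone, with 2 higher and 4 lower, and to 0.06 without NPPC-Exo 1 and miR-Exo 1. Among all genes tested, 43.6% were called there, 22.1% lower and 21.5% higher, and the median was 0.0175. Under miR-Exo 9 changed, of which 8 fell and 1 rose, again Fosl1, and the median was -1.66. Atf3 was the gene that did not pass. The background there was 49.1%, with 24.4% lower and 24.7% higher, and a median of 0.0287. The groups did not overlap for 6 and 9 of the 10 genes, against 53.6% and 58.4% of all genes. When counts were scaled by library size alone, 8237 and 9119 of the 15650 genes were called under NPPC-Exo and miR-Exo. The share of higher genes among those called then went from 49.3% to 77.8% under NPPC-Exo and from 50.4% to 76.4% under miR-Exo. The erastin comparisons share no libraries with each other, but each shares libraries with both comparisons of exosome kinds.

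For miR-Exo against NPPC-Exo without erastin 3 of the 10 were called, Fos, Jun and Atf3, all higher, and the median of the 10 was 0.94. Of all genes 10.7% were called there, 4.15% higher and 6.52% lower, with a median of 0. In the presence of erastin Fos, Fosl2 and Atf3 were higher with miR-Exo, Fosl1, Jun and Ier2 were lower, and the median was -0.48. Of all genes 31.3% were called in this comparison, 15.6% higher and 15.8% lower, and their median was 0.011. The groups did not overlap for 3 and 8 of the 10, against 28.8% and 48% of all genes. The interaction, the change with erastin under miR-Exo minus that under NPPC-Exo, was called for 4, namely Jun, Junb and Ier2 as lower and Fosl2 as higher, where 12.8% of all genes were called, 5.81% higher and 7.01% lower. Without NPPC-Exo 1 and miR-Exo 1 the calls were 5 higher and 5 lower for erastin under NPPC-Exo, 1 higher and 7 lower under miR-Exo, 6 higher for miR-Exo without erastin, 3 higher and 4 lower with it, and 6 lower for the interaction. Of all genes 6738, 7156, 1276, 5334 and 1907 were called there, in the same order. With all 12 libraries these counts were 6816, 7687, 1669, 4906 and 2006. The count of the 10 for miR-Exo without erastin was also 6 without NPPC-Exo 1 alone, where 1854 of all genes were called.

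**Figure D3:**
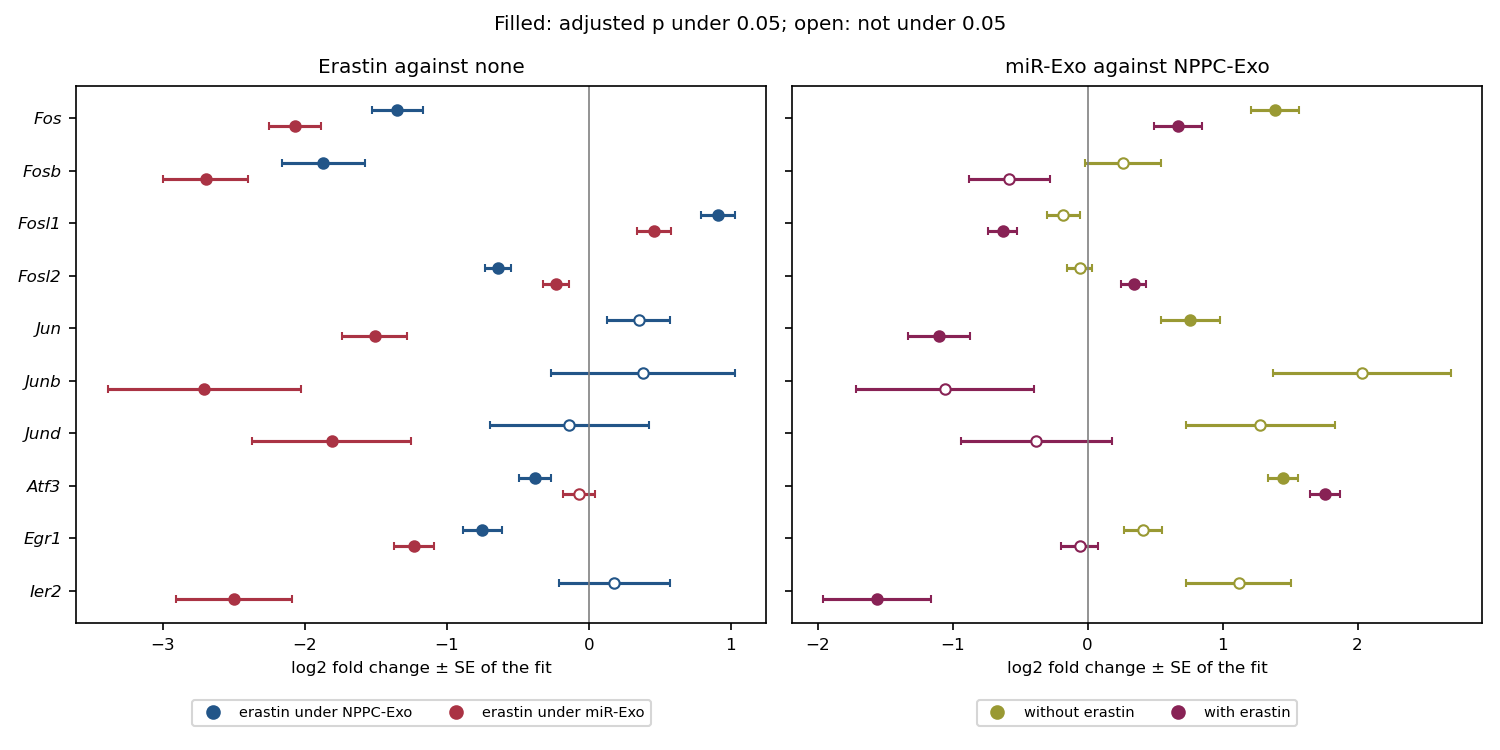
Log2 fold change of the 10 genes for erastin against none (left) and miR-Exo against NPPC-Exo (right), with bars of 1 SE of the fit; filled points have an adjusted p under 0.05. With erastin Fosl1 alone lies to the right of 0 with a filled point, and Jun, Junb, Jund and Ier2 have filled points, to the left, under miR-Exo only, while Atf3 is to the right in both comparisons of exosomes.

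Fos, the prototype of the family and the partner of Jun in classical AP-1, was low with erastin and high with miR-Exo. Its CPM were 25.3, 27.4 and 24.4 with NPPC-Exo and 49.8, 69.3 and 83 with miR-Exo. With erastin they were 11.1, 8.53 and 10.6 under NPPC-Exo and 13.1, 15.4 and 19.6 under miR-Exo. No group overlapped with another, and every erastin library was below every library without erastin. Erastin lowered Fos by 2.55-fold under NPPC-Exo (log2 fold change -1.35 ± 0.18, SE of the fit, adjusted p = 3.88e-05) and by 4.2-fold under miR-Exo (-2.07 ± 0.18, adjusted p = 6.24e-07). It was higher with miR-Exo than with NPPC-Exo by 2.62-fold without erastin (1.39 ± 0.18, adjusted p = 0.000325) and by 1.59-fold with it (0.67 ± 0.18, adjusted p = 0.0127). The last of these calls was lost without the second library of erastin with NPPC-Exo (0.54, adjusted p = 0.0652) or without the third of erastin with miR-Exo (0.48, adjusted p = 0.0645). The fall with erastin did not differ between the exosome kinds at the threshold (difference -0.72 ± 0.25, 95% interval -1.26 to -0.18, adjusted p = 0.0791), but it did without miR-Exo 1 (-0.9, adjusted p = 0.0241) and without the third library of erastin with miR-Exo (-0.92, adjusted p = 0.0261).

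Fosb, which encodes a Fos-type factor that cells also make as a shortened, stable form, showed the largest falls of the Fos type. Its CPM were 6.76, 4.54 and 5.46 with NPPC-Exo and 5.28, 5.47 and 9.28 with miR-Exo. With erastin added they were 1.35, 2.15 and 1.08 under NPPC-Exo and 1.08, 0.806 and 1.19 under miR-Exo. The groups with and without erastin were fully apart, and the groups of different exosomes overlapped. The fall was 3.65-fold under NPPC-Exo (log2 -1.87 ± 0.29, adjusted p = 0.000158) and 6.51-fold under miR-Exo (-2.70 ± 0.30, adjusted p = 7.06e-06). Between the exosome kinds the differences were 0.26 ± 0.28 without erastin (95% interval -0.34 to 0.86, adjusted p = 0.617) and -0.58 ± 0.30 with it (-1.23 to 0.08, adjusted p = 0.173). Its interaction was -0.83 ± 0.41 (adjusted p = 0.207).

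Fosl1, or Fra-1, a Fos-type factor without the strong activation domain of Fos that accumulates in migrating and transformed cells, rose with erastin under both kinds of exosome. Jun rose too under NPPC-Exo when scaled by library size alone or tested on FPKM. Jun, Junb, Jund and Ier2 also passed as higher with erastin under NPPC-Exo when NPPC-Exo 1 and miR-Exo 1 were left out. Those libraries were left out because these genes were highest in them, which raises the change by construction. The CPM of Fosl1 were 18.3, 14.4 and 14.6 with NPPC-Exo and 12.9, 15.1 and 13.7 with miR-Exo. In the erastin groups they reached 29.6, 31.7 and 27.8 under NPPC-Exo and 17.5, 18.1 and 21.8 under miR-Exo. Every erastin library was above those of the same exosomes without it, and the groups without erastin overlapped. The rise was 1.88-fold under NPPC-Exo (log2 0.91 ± 0.12, adjusted p = 2.23e-05) and 1.38-fold under miR-Exo (0.46 ± 0.12, adjusted p = 0.00469). With erastin, Fosl1 was 1.55-fold lower with miR-Exo than with NPPC-Exo (-0.63 ± 0.11, adjusted p = 0.000998), and without erastin the difference was -0.18 ± 0.12 (95% interval -0.43 to 0.07, adjusted p = 0.358). The interaction was -0.45 ± 0.16 (adjusted p = 0.0864), and it passed without NPPC-Exo 1 (-0.57, adjusted p = 0.0233) or without the third library of erastin with miR-Exo (-0.58, adjusted p = 0.029).

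Fosl2, or Fra-2, the other late Fos-type factor, had the narrowest spread of the 10. Its CPM were 17.6, 17.4 and 17.1 with NPPC-Exo and 16.8, 15.6 and 17.6 with miR-Exo. In the erastin groups they were 12, 10.1 and 11.4 under NPPC-Exo and 14.1, 14.2 and 14.3 under miR-Exo. The 4 groups fell into 3 levels, with both groups without erastin together at the top. The fall under NPPC-Exo was 1.55-fold (log2 -0.64 ± 0.09, adjusted p = 4.06e-05). Under miR-Exo it was 1.17-fold (-0.23 ± 0.09, adjusted p = 0.0377). This last call turned to 0.07 (adjusted p = 0.471) when counts were scaled by library size alone and was lost in 9 of 23 alternative settings, among them without miR-Exo 1, miR-Exo 3 or any library of erastin with miR-Exo (adjusted p from 0.0509 to 0.128). With erastin Fosl2 was 1.27-fold higher with miR-Exo (0.34 ± 0.09, adjusted p = 0.00818, but 0.0532 without the second library of erastin with NPPC-Exo), and without it the difference was -0.06 ± 0.09 (95% interval -0.25 to 0.12). The interaction passed the threshold (0.41 ± 0.12, adjusted p = 0.0443) but not in 12 of 22 alternative settings, 10 of them with a single library left out, where its adjusted p reached 0.13.

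The make-up of the Fos-type messages is described by each gene's share of their summed FPKM. FPKM are scaled by library size but not by composition, so the sums are not on the scale of the CPM and the tests. The shares do not depend on that scaling, but they rest on the implied lengths, such as 797 bases for Fosl2. The summed FPKM of the 4 genes was 42 ± 1.45 with NPPC-Exo and 40 ± 1.18 with erastin and NPPC-Exo. It was 66.2 ± 10.8 with miR-Exo and 44.2 ± 3.79 with erastin and miR-Exo. Fos made up 32.4% ± 1.9 of that sum with NPPC-Exo, 56.4% ± 5.56 with miR-Exo, 16.1% ± 1.8 with erastin and NPPC-Exo and 24.8% ± 2.84 with erastin and miR-Exo. Fosl1 made up 18.9% ± 2.03, 11.4% ± 1.57, 45.6% ± 3.72 and 28.4% ± 0.899 in the same order. The share of Fos was highest with miR-Exo alone and that of Fosl1 with erastin and NPPC-Exo. Fosl2 held between 29.8% with miR-Exo and 46.2% with erastin and miR-Exo, and Fosb at most 2.98%.

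The ratio of Fosl1 to Fos, in FPKM, separated all 4 groups. It was 0.69, 0.503 and 0.571 with NPPC-Exo and 0.248, 0.208 and 0.158 with miR-Exo. In the erastin groups it was 2.55, 3.56 and 2.52 under NPPC-Exo and 1.27, 1.13 and 1.06 under miR-Exo. In log2 the ratio was higher with erastin by 2.28 under NPPC-Exo and by 2.52 under miR-Exo, and it was lower with miR-Exo by 1.54 and, with erastin, by 1.3. Each of the 4 comparisons gave p = 0.1 in a two-sided exact permutation test, the smallest that 3 libraries against 3 allow, and 0.2 after adjustment over the 8 ratio comparisons made. This ratio does not depend on the scaling between libraries.

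**Figure D4:**
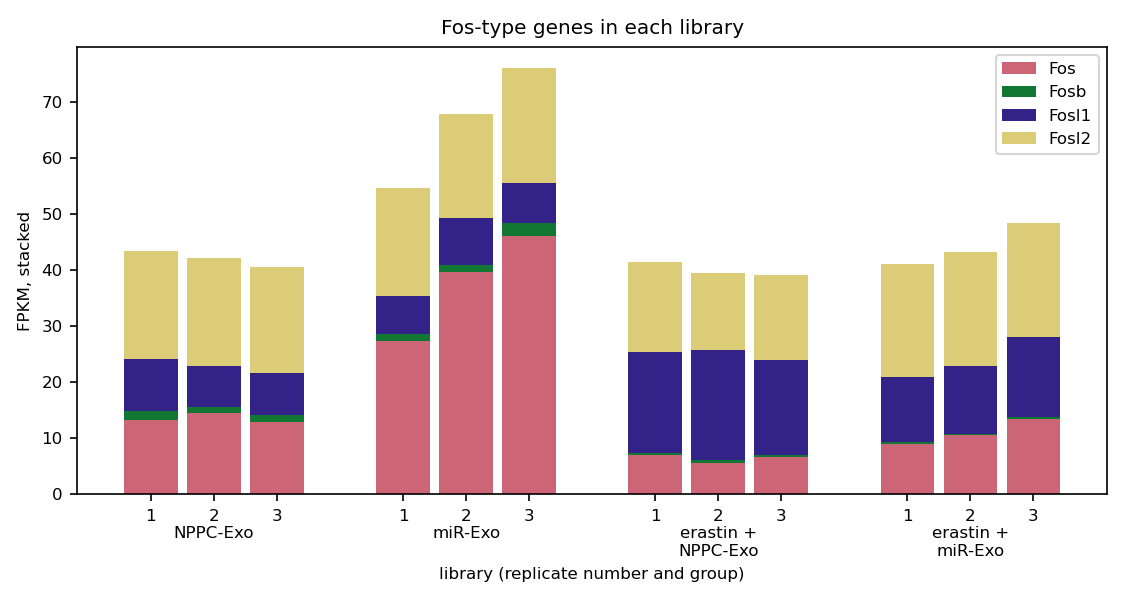
Summed FPKM of the 4 Fos-type genes in each of the 12 libraries, stacked by gene on a linear axis from 0. The Fos part is tallest with miR-Exo, where it makes up 50.1% to 60.7% of the sum, and the Fosl1 part is tallest with erastin and NPPC-Exo, at 43.3% to 49.8%.

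Jun, the main partner of the Fos proteins and itself a target of JNK, moved in opposite directions with miR-Exo in the presence and absence of erastin. Its CPM were 29.7, 22.4 and 18.9 with NPPC-Exo and 58.6, 31.4 and 30.6 with miR-Exo. With erastin added they were 28.9, 28.2 and 33.3 under NPPC-Exo and 13, 14 and 15.3 under miR-Exo. The erastin and miR-Exo libraries were below every other library. Under miR-Exo erastin lowered Jun by 2.85-fold (log2 -1.51 ± 0.23, adjusted p = 0.000101), and under NPPC-Exo the change was 0.35 ± 0.22 (95% interval -0.13 to 0.83, adjusted p = 0.234). The difference between these changes passed the test (interaction -1.86 ± 0.32, adjusted p = 0.00315) and in all 22 alternative settings (adjusted p up to 0.0125). With erastin Jun was 2.14-fold lower with miR-Exo (-1.10 ± 0.23, adjusted p = 0.00258). Without erastin it was 1.7-fold higher (0.76 ± 0.22, adjusted p = 0.0464), a call lost in 11 of 23 alternative settings, 9 of them with a single library left out, such as miR-Exo 1 (0.39, adjusted p = 0.171). Without NPPC-Exo 1 and miR-Exo 1 the change with erastin under NPPC-Exo was 0.55 (adjusted p = 0.00173), and it also passed when scaled by library size alone (0.63, adjusted p = 0.0272).

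Junb, which binds DNA as Jun does but activates less strongly and can oppose it, had the widest spread of the 10. Its CPM were 15.1, 4.39 and 5.86 with NPPC-Exo, and 78.2, 12.9 and 12.6 with miR-Exo. With erastin they were 8.36, 12.4 and 12.2 under NPPC-Exo and 4.43, 3.52 and 7.93 under miR-Exo. The library miR-Exo 1 held 4535 counts of Junb where the other libraries of its group held 745 and 798. Under miR-Exo the groups did not overlap and Junb fell 6.53-fold with erastin (log2 -2.71 ± 0.68, adjusted p = 0.00473). That call held in all 22 alternative settings with a value, with a smallest fall of 1.27 on the log2 scale and an adjusted p up to 0.0351. The other 3 comparisons of Junb did not pass: 0.38 ± 0.65 for erastin under NPPC-Exo (95% interval -1.02 to 1.78), 2.03 ± 0.66 for miR-Exo without erastin (0.61 to 3.46, adjusted p = 0.0689, but 0.0318, 0.046 and 0.0386 without NPPC-Exo 1, miR-Exo 2 and miR-Exo 3) and -1.06 ± 0.66 for miR-Exo with erastin (-2.48 to 0.37, adjusted p = 0.256). The interaction was -3.09 ± 0.93 (adjusted p = 0.0462) and was lost without miR-Exo 1 (-1.65, adjusted p = 0.112) and in 11 of 21 settings in all, 8 of them with a single library left out. Without both NPPC-Exo 1 and miR-Exo 1, Junb rose with erastin under NPPC-Exo (1.1, adjusted p = 0.0124) and was higher with miR-Exo without erastin (1.31, adjusted p = 0.032) and lower with it (-1.06, adjusted p = 0.00955).

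Jund, the Jun-type factor that most cells make at rest, was low throughout. Its CPM were 5.9, 2.26 and 1.56 with NPPC-Exo, and 16.3, 3.6 and 3.8 with miR-Exo. In the erastin groups they were 2.77, 2.83 and 3.2 under NPPC-Exo and 2.07, 2.05 and 2.64 under miR-Exo. The erastin libraries were close together, and the groups without erastin each had 1 library far above the rest. Erastin under miR-Exo lowered Jund 3.5-fold (log2 -1.81 ± 0.56, adjusted p = 0.017), a call lost without miR-Exo 1 (-0.71, adjusted p = 0.189) or without the first (-1.77, adjusted p = 0.0566) or the second (-1.76, adjusted p = 0.0545) library of erastin with miR-Exo, and on the log2(FPKM + 1) scale (-0.84, adjusted p = 0.0916). Under NPPC-Exo the change was -0.14 ± 0.56 (95% interval -1.35 to 1.06), which turned to 0.14 when scaled by library size alone and to 0.62 (adjusted p = 0.0409) without NPPC-Exo 1 and miR-Exo 1. The differences between exosome kinds were 1.28 ± 0.55 without erastin (0.09 to 2.48, adjusted p = 0.166, and 2.05 with adjusted p = 0.0373 without NPPC-Exo 1) and -0.38 ± 0.56 with it (-1.59 to 0.83, adjusted p = 0.665). The interaction was -1.66 ± 0.79 (adjusted p = 0.189), -2.43 (adjusted p = 0.0437) without NPPC-Exo 1 alone and -1.34 (adjusted p = 0.0162) without NPPC-Exo 1 and miR-Exo 1.

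Ier2, a small nuclear protein of the early response to growth factors, followed Jun in the order of its groups. The deposited table types this row as a pseudogene, and whether its counts include reads of near-identical copies was not tested. Its CPM were 25, 11.8 and 7.94 with NPPC-Exo and 48.5, 27.5 and 21.3 with miR-Exo. With erastin added they were 14.6, 17.1 and 18.8 under NPPC-Exo and 4.96, 4.06 and 8.13 under miR-Exo. With miR-Exo the erastin libraries were all below those without it, and with NPPC-Exo they lay within the range of those without it. The fall under miR-Exo was 5.67-fold (log2 -2.50 ± 0.41, adjusted p = 0.000203), and the change under NPPC-Exo was 0.18 ± 0.39 (95% interval -0.66 to 1.01, adjusted p = 0.752). The interaction was -2.68 ± 0.56 (adjusted p = 0.00894) and passed in all 22 alternative settings (adjusted p up to 0.0296). With erastin Ier2 was 2.95-fold lower with miR-Exo (-1.56 ± 0.40, adjusted p = 0.00986), and without erastin the difference was 1.12 ± 0.39 (0.28 to 1.96, adjusted p = 0.0883). Without NPPC-Exo 1 and miR-Exo 1 the last became 1.31 (adjusted p = 0.0182, and 1.72 with adjusted p = 0.00904 without NPPC-Exo 1 alone), and the change with erastin under NPPC-Exo became 0.77 (adjusted p = 0.0339).

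Atf3, a stress-induced factor of the ATF family that pairs with Jun proteins, was set apart by the kind of exosome rather than by erastin. Its CPM were 8.63, 9.6 and 9.48 with NPPC-Exo and 22.3, 27.1 and 26.3 with miR-Exo. In the erastin groups they were 6.8, 7.25 and 7.25 under NPPC-Exo and 20.9, 24.1 and 27 under miR-Exo. Every miR-Exo library was above every NPPC-Exo library. Atf3 was 2.73-fold higher with miR-Exo without erastin (log2 1.45 ± 0.11, adjusted p = 5.93e-06) and 3.38-fold higher with it (1.76 ± 0.11, adjusted p = 2.37e-07). These differences passed in all 23 alternative settings, from 1.24 to 1.53 and from 1.52 to 1.86. Erastin lowered it 1.3-fold under NPPC-Exo (-0.38 ± 0.11, adjusted p = 0.0133), a call lost when scaled by library size alone (-0.1, adjusted p = 0.51), on the log2(FPKM + 1) scale (-0.07, adjusted p = 0.571) or without the first library of erastin with NPPC-Exo (-0.33, adjusted p = 0.0557). Under miR-Exo the change was -0.07 ± 0.11 (95% interval -0.3 to 0.16), which turned to 0.23 (adjusted p = 0.0856) under that scaling. The interaction was 0.31 ± 0.15 (adjusted p = 0.215).

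Egr1, a zinc finger factor induced through serum response factor, was by far the most counted of the 10. Its CPM were 224, 262 and 295 with NPPC-Exo and 283, 347 and 408 with miR-Exo. With erastin added they were 176, 143 and 143 under NPPC-Exo and 127, 148 and 169 under miR-Exo. All 6 erastin libraries were below the 6 others, and within either set the exosome kinds overlapped. Erastin lowered Egr1 1.69-fold under NPPC-Exo (log2 -0.75 ± 0.14, adjusted p = 0.000736) and 2.34-fold under miR-Exo (-1.23 ± 0.14, adjusted p = 1.1e-05). Between exosome kinds the difference was 0.41 ± 0.14 without erastin (95% interval 0.1 to 0.72, adjusted p = 0.0893, and 0.54 with adjusted p = 0.0364 without miR-Exo 1) and -0.06 ± 0.14 with it (-0.37 to 0.25, adjusted p = 0.793). The interaction was -0.47 ± 0.20 (adjusted p = 0.147).

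The spread between libraries of a group differed widely among the 10 genes. Expressed as the SD of log2 CPM within groups, pooled over the 4 groups, it was 0.95 for Junb, 0.80 for Jund and 0.59 for Ier2. Counting error alone would give 0.07, 0.11 and 0.06, or 0.09, 0.16 and 0.08 if read pairs count as 2. Among tested genes of like level these SDs stood at the percentiles 99.8, 98 and 99.2. Fosb had 0.39, Jun 0.32, Fos 0.26 and Egr1 0.21, at the percentiles 79.8, 96.3, 93.9 and 97.4. Egr1 had a counting error of 0.01, or 0.02 if pairs count as 2. Fosl1 had 0.15, Atf3 0.13 and Fosl2 0.08, at the percentiles 65.6, 36.5 and 3.35. Of these, Fosl2 was narrow for its level, and Fosl1 was somewhat wider than the median gene of like level.

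The genes upstream and downstream of AP-1 are given by list, and their counts are read against the shares of all genes called given above. Of 9 genes for serum response factor, its partners and the Egr corepressors, 6 fell and 3 rose with erastin under NPPC-Exo (median -0.42), and 5 fell and 3 rose under miR-Exo (median -0.78), and the medians were -0.13 and -0.47 when scaled by library size alone, with 4 and 5 lower and 3 and 4 higher. Myocd, a coactivator of serum response factor, averaged 230 ± 23 CPM with NPPC-Exo and 46.3 ± 5.85 with erastin and NPPC-Exo (log2 -2.31 ± 0.10, adjusted p = 9.46e-10). Fhl2, another cofactor, was 157 ± 1.02 with miR-Exo and 58.2 ± 4.57 with erastin and miR-Exo (-1.43 ± 0.06, adjusted p = 2.98e-10). Mrtfa, the actin-regulated coactivator, fell under both exosomes (-0.70 ± 0.10 and -1.46 ± 0.11, adjusted p = 0.000101 and 1.03e-07). With erastin Mrtfa and Srf itself were lower with miR-Exo (-0.72 ± 0.11 and -0.58 ± 0.09, adjusted p = 0.00023 and 0.000432). Nab2, a corepressor of Egr1 that Egr1 induces, fell by 0.6 and 0.9 on the log2 scale with erastin (adjusted p = 4.46e-05 and 8.64e-07).

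The balance of the MAP kinases depended on the scaling, as did that of all genes called. With erastin 5 of 26 tested rose and 9 fell under NPPC-Exo, and 8 rose and 9 fell under miR-Exo. The medians were 0.07 and -0.02. Scaled by library size alone, 12 were higher and 3 lower under NPPC-Exo (median 0.36), and 13 higher and 4 lower under miR-Exo (median 0.28). Map3k8, the kinase that feeds inflammatory signals into ERK, rose from 1.32 ± 0.332 CPM to 8.7 ± 0.238 with erastin under NPPC-Exo (log2 2.71 ± 0.17, adjusted p = 3.26e-08). Under miR-Exo it went from 1.47 ± 0.306 to 30.8 ± 2.1 CPM (4.39 ± 0.18, adjusted p = 3.47e-10). Mapk9, which encodes JNK2, fell in both (-0.84 ± 0.08 and -0.95 ± 0.08, adjusted p = 1.61e-06 and 4.64e-07), and Mapk3, which encodes ERK1, rose in both (0.40 ± 0.04 and 0.51 ± 0.04). Mapk8, which encodes JNK1, was lower with miR-Exo without and with erastin (-0.49 ± 0.10 and -0.59 ± 0.10, adjusted p = 0.00768 and 0.00066).

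Feedback inhibitors of these kinases moved both ways, with 5 of 19 higher and 5 lower under either kind of exosome (medians 0.02 and 0). With library size alone 8 were higher and 5 lower under NPPC-Exo, and 9 higher and 5 lower under miR-Exo, with a median of 0.30 in both. Dusp1, an early-response phosphatase of JNK and p38, fell from 175 ± 15.1 to 55.4 ± 5.38 CPM with erastin under NPPC-Exo (log2 -1.66 ± 0.11, adjusted p = 3.81e-08) and from 194 ± 27 to 59 ± 5.13 CPM under miR-Exo (-1.71 ± 0.11, adjusted p = 2.39e-08). Dusp16, also a phosphatase of JNK, rose in both (0.86 ± 0.09 and 1.03 ± 0.09). Dusp4, a nuclear phosphatase of ERK, was higher with miR-Exo, at 4.39 ± 0.851 CPM against 1.29 ± 0.342 (1.77 ± 0.27, adjusted p = 0.00106), and 4.28 ± 0.283 against 1.38 ± 0.475 with erastin (1.63 ± 0.26, adjusted p = 0.00045). Spry4, an inhibitor of receptor signalling to ERK, was lower in all 4 comparisons of erastin or exosome kind.

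Among 32 other immediate early genes 13 fell and 10 rose with erastin under NPPC-Exo (median -0.30), and 15 fell and 5 rose under miR-Exo (median -0.32). Scaled by library size alone these counts became 10 lower and 13 higher, and 12 lower and 10 higher, with a median of -0.02 in both. Ccn2 and Ccn1, matricellular proteins that respond to serum response factor and YAP, fell in both (-0.94 ± 0.04 and -0.95 ± 0.07 under NPPC-Exo, adjusted p = 6.7e-10 and 2.09e-07). Plk2, a stress kinase, rose from 94.1 ± 7.45 to 420 ± 11.2 CPM under NPPC-Exo (2.16 ± 0.06, adjusted p = 1.12e-11). Ptgs2, which encodes the prostaglandin enzyme COX-2, rose by 1.08 ± 0.09 and 1.67 ± 0.09. Gadd45a, a growth arrest gene, was higher with miR-Exo without erastin, at 37.1 ± 3.06 against 17.4 ± 0.768 CPM (1.09 ± 0.08, adjusted p = 5.43e-06).

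The dimer partners and relatives of AP-1 also moved both ways. Of 14 tested, 3 rose and 4 fell with erastin under NPPC-Exo (median -0.18) and 4 rose and 5 fell under miR-Exo (median -0.02), medians that turned to 0.11 and 0.28 with library size alone, where 5 rose and 3 fell, and 5 rose and 4 fell. Creb5, a CREB-type factor, fell under both exosomes (-1.39 ± 0.19 and -1.51 ± 0.19, adjusted p = 4.22e-05 and 1.92e-05). Crem, whose products include a repressor at CRE sites, rose (0.74 ± 0.11 and 1.12 ± 0.11, adjusted p = 0.000127 and 2.65e-06). Jdp2, a repressor that pairs with Jun proteins, was lower with miR-Exo in the presence of erastin, at 16.7 ± 2.71 against 23.9 ± 1.08 CPM (-0.52 ± 0.10, adjusted p = 0.00229).

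Genes reported elsewhere as AP-1 targets moved both ways with erastin. Of 25, 12 rose and 8 fell under each kind of exosome, with medians of 0.40 and 0.46. With library size alone 15 rose and 5 fell under NPPC-Exo (median 0.68), and 15 rose and 7 fell under miR-Exo (median 0.77). Mmp3, the matrix metalloproteinase stromelysin-1, went from 1.65 ± 0.0944 to 150 ± 25.4 CPM under NPPC-Exo (log2 6.50 ± 0.17, adjusted p = 1.12e-11) and from 1.77 ± 0.441 to 206 ± 12.1 CPM under miR-Exo (6.85 ± 0.17, adjusted p = 4.42e-12). Ccl2, a chemokine for monocytes, rose by 7.08 ± 0.20 and 7.07 ± 0.21 on the log2 scale. Il6, an inflammatory cytokine, was at 7.43 ± 0.909 CPM with NPPC-Exo, 28.2 ± 4.07 with erastin and NPPC-Exo and 99.9 ± 5.73 with erastin and miR-Exo. With erastin it was higher with miR-Exo by 1.82 ± 0.13 (adjusted p = 5.02e-07). Ccnd1, which encodes cyclin D1, was lower with miR-Exo without and with erastin (-0.47 ± 0.06 and -0.92 ± 0.06, adjusted p = 0.000504 and 4.8e-07). For miR-Exo without erastin 8 of the 25 were lower and 1 higher. Many of these genes also answer to NF-kappa B or p53, and no AP-1 binding was measured.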

How the data were processed

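The authors deposited 1 table of raw counts per gene with FPKM beside them for 12 libraries. Per the labels' protocols the libraries were made from TRIzol total RNA with dUTP strand marking. Per the submitters' processing notes StringTie and the mRatBN7.2 build were used, with no version, and neither aligner nor counter is named there. Even numbers made up 57.3% of counts between 1 and 20, which can happen when read pairs count as 2.

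Counts were filtered with filterByExpr, scaled by TMM (factors 0.877 to 1.15) and fitted with edgeR 4.0.16 quasi-likelihood models (R 4.3.3) over all 12 libraries. Genes are called at a Benjamini-Hochberg adjusted p under 0.05 over 15650 genes. CPM use the scaled totals. The deposited FPKM values served for levels between genes and, with limma 3.58.1, as an alternative. DESeq2 1.42.0, other scaling and filters, halved counts, a replicate block, fewer groups and each library left out were also tried. The scripts were tested on simulated data. No libraries were identical.

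The 10 genes are named whatever their result, and of each list up to 4 genes with the smallest adjusted p in a comparison, not all of which are discussed. Nr4a1, Nr4a2, Nr4a3 and Zfp36 were named outside this rule. Members and lists were chosen with earlier results of these data known. Leaving out NPPC-Exo 1 and miR-Exo 1 together was chosen after seeing the data.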

Additional observations from a re-analysis of the deposited data

Results flagged for a closer look

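For 4 of the 10 genes the change with erastin differed between the exosome kinds by a test of the difference itself. The log2 difference, erastin under miR-Exo minus erastin under NPPC-Exo, was -1.86 for Jun, -3.09 for Junb, -2.68 for Ier2 and 0.41 for Fosl2. Those of Jun and Ier2 passed in each of the 22 alternative settings run. That of Junb did not pass in 11 of 21 settings, one of them without miR-Exo 1, where it was -1.65, and that of Fosl2 did not pass in 12 of 22. Jun, Junb and Ier2 were highest, within their groups without erastin, in NPPC-Exo 1 and miR-Exo 1, and the cause of those high values was not tested.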

How the results depend on the processing

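The falls of Fos, Fosb and Egr1 and the rise of Fosl1 with erastin kept their direction and passed in all 23 alternative settings under both kinds of exosome, as did the higher Atf3 with miR-Exo. Without NPPC-Exo 1 and miR-Exo 1 together, 10 genes rather than 6 were called for erastin under NPPC-Exo. For miR-Exo without erastin 6 rather than 3 were called. Of all genes, 6738 rather than 6816 and 1276 rather than 1669 were called in these comparisons. Jund with erastin under NPPC-Exo turned to 0.62 in that setting. The setting leaves out the libraries in which Jun, Junb, Jund and Ier2 were highest, which raises their changes with erastin by construction. Without a filter on low counts 2 rather than 4 of the 10 were called for the interaction, and 1692 rather than 2006 of all genes.

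Scaling by library size alone moved the median of all genes from 0.0175 to 0.3 and from 0.0287 to 0.334 for erastin under NPPC-Exo and miR-Exo, and from 0.011 to 0.115 for miR-Exo with erastin. The share of higher genes among those called went from 49.3% to 77.8%, from 50.4% to 76.4%, from 38.9% to 68.7% and from 49.7% to 68.6% in the comparisons in the order of the report. Under library size alone and limma on log2(FPKM + 1) and log2(FPKM + 0.1), these turned direction: Jund with erastin under NPPC-Exo to 0.14, 0.18 and 0.34; Fosl2 under miR-Exo to 0.07, 0.06 and 0.07; Atf3 under miR-Exo to 0.23, 0.2 and 0.22; Fosl2 with miR-Exo without erastin to 0.02 in each; and Egr1 with miR-Exo and erastin to 0.04 in each. None of these reversed values had an adjusted p under 0.05. The cause was not tested.

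Leaving out each library in turn gave between 5 and 6 of the 10 genes called for erastin under NPPC-Exo, 7 and 9 under miR-Exo, 2 and 6 for miR-Exo without erastin, 4 and 6 with it, and 2 and 5 for the interaction. Over all genes the count for miR-Exo without erastin ran from 970 (without NPPC-Exo 2) to 1854 against 1669, and was 1042 without miR-Exo 2. For the interaction it ran from 1205 (without the third library of erastin with NPPC-Exo) to 2419 against 2006, and was 1218, 1272, 1227 and 1300 without NPPC-Exo 2, miR-Exo 1 and the first and second of erastin with miR-Exo. Small values also turned direction. For erastin under NPPC-Exo, Jund ran from -0.48 to 0.62 (without NPPC-Exo 1) and Ier2 from -0.13 (without NPPC-Exo 3) to 0.77. For erastin under miR-Exo, Atf3 ran from -0.18 to 0 (without the first of erastin with miR-Exo). Fosb ran from -0.06 (without miR-Exo 3) to 0.42 for miR-Exo without erastin, and Egr1 from -0.19 to 0.02 (without the first of either erastin group) for miR-Exo with erastin.

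With the replicate number as a block, 6, 9, 3, 6 and 4 of the 10 were called in the order of the report, as without it, and Jund with erastin under NPPC-Exo turned to 0.1 (adjusted p = 0.885). Deviations of same-numbered libraries correlated from -0.238 to 0.418 over 18 pairs, with 5 over 0.1, and 6 of 12 libraries correlated best with their own number, so the numbers are not taken as pairs. DESeq2 gave no adjusted p for Junb. Of 2093 alternative values of 91 results on named list genes, 52 no longer passed and 0 turned direction.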

Other observations

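Some genes followed members closely over the 12 libraries. Of those named here, Klf6 is on the lists above and Ier2 is itself a member. Among 10161 genes whose CPM averaged at least 5 on the linear scale, besides the member itself, the highest Pearson correlations of log2 CPM with Atf3 were those of Gpnmb (0.989), a lysosomal glycoprotein, Pla2g7 (0.988) and Mir221 (0.973). With Fosl1 they were Itprip (0.985), Ddx11 (0.973) and Traf3 (0.973), and with Fos they were Ndufv3 (0.972), Tgfbi (0.968) and Net1 (0.965). With Egr1 the highest were Mllt11 (0.977) and Klf6 (0.963), another early-response factor. With Jun they were Ier2 (0.962), Anks6 (0.957) and Erf (0.957), an ETS repressor. The 12 libraries share 4 groups, and the values are given as a description with no test.

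The orphan receptors Nr4a1, Nr4a2 and Nr4a3, early-response genes chosen here after their values were seen, are given as values. With erastin under NPPC-Exo they fell by 1.52, 0.46 and 1.21 on the log2 scale (adjusted p = 0.00141, 0.00977 and 0.000526). Under miR-Exo Nr4a2 rose by 0.43 (adjusted p = 0.0124), and Nr4a1 and Nr4a3 were at -0.46 and -0.24 (adjusted p = 0.231 and 0.376). The interaction was called for Nr4a2 (0.89 ± 0.18, adjusted p = 0.00765) and not for Nr4a1 (1.06 ± 0.43, adjusted p = 0.129) or Nr4a3 (0.96 ± 0.30, adjusted p = 0.0542). Zfp36, which encodes a protein that degrades short-lived messages, was also picked outside the rule for naming list genes. It fell by 0.84 and 2.04 with erastin under NPPC-Exo and miR-Exo, with an interaction of -1.19 ± 0.22 (adjusted p = 0.00521).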
